A study of Mus musculus with 6 samples.

Results

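The 54 genes described here are protein-coding genes known to be imprinted in the mouse, that is, expressed mainly from the copy inherited from 1 parent in at least some tissues. They were taken by name, and all 54 were found by symbol among 21887 protein-coding genes of RefSeq on GRCm38.p6 (mm10). By textbook knowledge, 28 are expressed from the paternal copy, 22 from the maternal copy, and 4 (Grb10, Gnas, H13 and Blcap) make transcripts that differ in the copy they come from. The data were lists of enriched regions (broad peaks) from MNase digestion of sperm of the epididymis and vas deferens. Micrococcal nuclease removes DNA that is not protected, and the mononucleosome-sized DNA was purified and sequenced, so a peak marks a place where such protected DNA was enriched. The K49A group had 2 libraries, from mice whose protamine 1 carries the K49A substitution (lysine to alanine). The WT group had 4 libraries, from wild-type C57BL6 mice. All 6 libraries had the same treatment, with DNase I before decondensation and 5 and then 15 units of MNase, on the same stated number of sperm per genotype. The design text calls the libraries of a group biological replicates. The age of the mice, the strain background of the mutant and the number of mice per library are not stated in the labels.

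Imprinting is set in the germ line. At most imprinted loci a control region is methylated in either the oocyte or the sperm and keeps that mark after fertilisation, and the genes around it are then expressed from 1 parental copy. Most control regions are methylated in the oocyte and lie at promoters that are unmethylated in sperm, while a few, such as those of the Igf2, Dlk1 and Rasgrf1 loci, are methylated in sperm. During spermatid elongation most histones are replaced by protamines, and the nucleosomes that stay are known to lie mainly at CpG-rich, unmethylated sequence.

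The lists were far shorter in K49A, with 700 and 1017 peaks, than in WT, with 11313 to 27903. No read counts were used and the depth of the libraries is unknown. The lists end at a q of 0.1, which corresponded to a −log10 p of at least 4.73 and 4.55 in K49A and of at least 3.32 to 3.75 in WT. Peak lists do not measure expression, so the cell type could not be checked against expressed markers. Of 8 spermatid and sperm genes, none had a peak at an end in K49A and 1, Acrv1, had one in WT, in WT 2 alone. Among 4 leukocyte and 3 epididymal epithelium genes, Cd3d and Defb42 had an end peak in all 4 WT libraries and the others in none. Over all genes, 22.2% had an end peak in all 4 WT libraries, 59.8% in at least 1, and 0.626% in at least 1 K49A library. Counts of so few genes do not show which cells were present.

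Imprinted genes carried almost no peaks in K49A sperm and many in wild-type sperm. Within 1 kb of either end of the gene, 0 of 54 had a peak in K49A 1 and 0 of 54 in K49A 2, which allows a share of up to 5.56% in each. In WT 1 to 4, 24, 31, 31 and 34 of 54 had one. Over all genes, 0.429% and 0.334% had an end peak in K49A 1 and 2, and 28.8, 43, 46.3 and 49.9% in WT 1 to 4. The mean share was 0% in K49A (n = 2) and 55.6 ± 7.86% in WT (SD, n = 4). For the other 21833 protein-coding genes it was 0.382 ± 0.0680% in K49A (SD, n = 2) and 42.0 ± 9.23% in WT (SD, n = 4). An end peak in at least 1 K49A library was found in 0.626% of all genes, so that a count of 0 among 54 genes in K49A is near this background. The WT share of imprinted genes was above that of other genes in each of the 4 libraries, by 15.7, 14.5, 11.1 and 13.1 percentage points. When each list was cut to its 700 strongest peaks, imprinted genes with an end peak numbered 0 and 0 in K49A and 2, 3, 2 and 2 in WT 1 to 4, so the size of the difference moved with the length of the lists.

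In the gene body, counted by the midpoint of the peak, 2 of 54 imprinted genes had a peak in each K49A library, and 31, 37, 40 and 47 of 54 in WT 1 to 4. Over all genes, a body peak was found in 1.08% and 1.45% in K49A 1 and 2, and in 31.2, 44.4, 47.6 and 53.5% in WT 1 to 4. The mean share was 3.70% in K49A (n = 2) and 71.8 ± 12.3% in WT (SD, n = 4), against 1.26 ± 0.262% in K49A (SD, n = 2) and 44.1 ± 9.45% in WT (SD, n = 4) of other genes. With lists of 700 peaks the counts were 2 and 2 in K49A and 2, 4, 3 and 3 in WT 1 to 4, a difference of -1.85 points. In percent of imprinted genes these are 3.70 and 3.70, and 3.70, 7.41, 5.56 and 5.56. Of other genes, 1.07% and 0.921% had a body peak in K49A 1 and 2 at this length, and 2.39, 1.87, 1.92 and 2.20% in WT 1 to 4. Imprinted genes of this list are long, with a median of 39383 bp against 17144 bp for other genes. Per 100 kb of gene, imprinted genes held 0.0632 ± 0.0179 peaks in K49A (SD, n = 2) and 1.52 ± 0.462 in WT (SD, n = 4), and other genes 0.0329 ± 0.00959 in K49A (SD, n = 2) and 1.29 ± 0.407 in WT (SD, n = 4). The K49A values rest on 2 and 3 peaks in imprinted genes. Per length, imprinted genes were above other genes in each of the 4 WT libraries. They held 0.961, 1.42, 1.62 and 2.07 peaks per 100 kb in WT 1 to 4, against 0.768, 1.26, 1.40 and 1.75. The gap between the means was smaller than the spread between WT libraries, but both classes share that spread, so it does not measure the gap. No test was made of the gap.

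**Figure D1:**
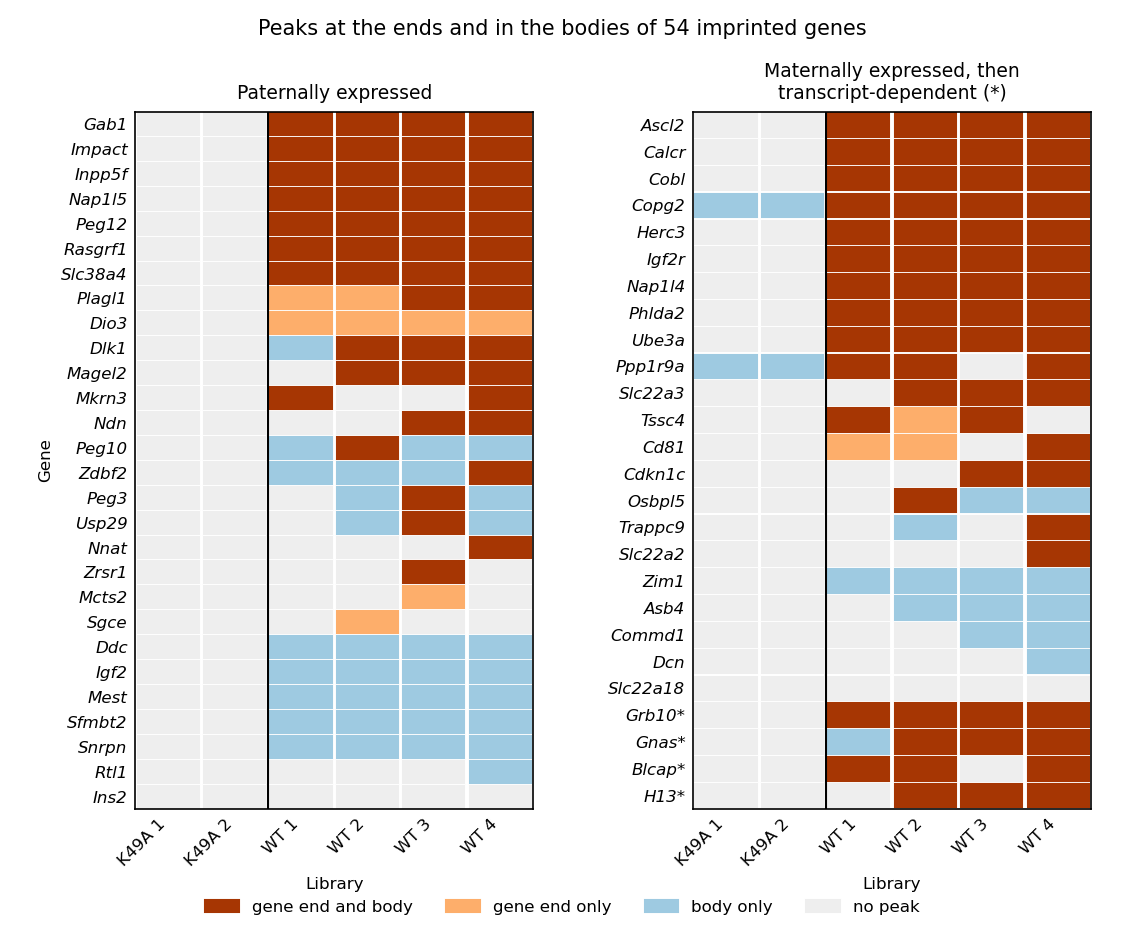
Each row is an imprinted gene and each column a library, K49A left of the line and WT right of it, and colours mark a peak within 1 kb of a gene end, in the gene body, in both or in neither. The 2 genes coloured in the K49A columns are Copg2 and Ppp1r9a, with body peaks, and Ins2 and Slc22a18 have no peak in any library.

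Of the 54 imprinted genes, 19 (35.2%) had an end peak in each of the 4 WT libraries and none in K49A, against 21.8% of all genes. This count was 11 with peaks kept from a −log10 q of 2, 9 with those from a −log10 p of 5, and 0 with lists of 700 peaks. The share over all genes was not counted at these settings. In the full lists, another 9 imprinted genes had an end peak in 3 WT libraries, 3 in 2 and 11 in 1, and 12 had none. An end peak in at least 1 WT library was thus found in 42 imprinted genes, against 59.8% of all genes. The bases under peaks at gene ends, a value per gene and library, were lower in each K49A library than in every WT library for 19 imprinted genes, against 22% of all genes, and higher for 0, against 0.0183% of all genes. For each of these 19 the two-sided exact permutation p was 0.133, the smallest that splits of 6 libraries into 2 and 4 allow, so no gene could reach 0.05. The median gene had 0 bp under end peaks in K49A in both classes, and in WT 248 bp for imprinted genes and 126 bp for other genes.

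**Figure D2:**
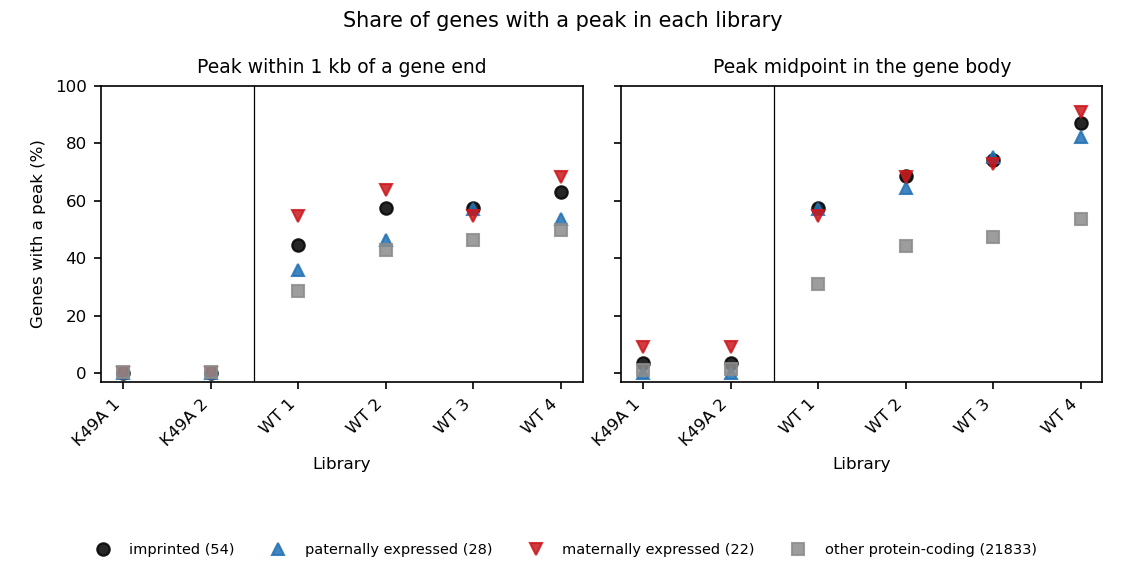
Points give the percent of genes with a peak in each library at a gene end (left) and in the gene body (right), for imprinted genes, their paternally and maternally expressed members, and other protein-coding genes. K49A points lie between 0 and 9.09% and WT points between 28.8 and 90.9%.

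Members with an end peak in all 4 WT libraries were ranked by where their best peak stood in its library's list, as a percentile of −log10 q averaged over WT 1 to 4. Inpp5f, Impact and Peg12, all grouped as paternally expressed, came first, and Herc3, grouped as maternally expressed, next. Every fold below is the authors' enrichment of a peak over its own library's background, and describes a peak within its list. Inpp5f encodes an inositol phosphatase, and a transcript that starts inside the gene is the imprinted, paternal product. It lies on chromosome 7 from 128611181 to 128696436 (mm10). It had no end peak in K49A, and the best peak had folds of 6.33, 3.66, 4.19 and 5.32 in WT 1 to 4. WT 1 and WT 4 were the highest and WT 2 the lowest. The merged region ran from 128611396 to 128612007 and began 31 bp after the annotated start of the gene. This was the 1 start annotated for Inpp5f, and the start of the paternal transcript was not located. The peak is thus not assigned to that transcript.

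Impact (chromosome 18, 12954690 to 12992950), a regulator of the amino acid sensing kinase Gcn2, had no end peak in K49A and folds of 4.68, 4.62, 5.84 and 3.32 in WT 1 to 4. Its peak began at the same base, 12955191, in WT 1, 2 and 3 and at 12955241 in WT 4. Peg12, an intronless gene of the Prader-Willi region whose product inhibits Gsk3 (chromosome 7, 62461871 to 62464510), had no end peak in K49A and folds of 3.81, 3.12, 3.47 and 3.61 in WT 1 to 4. Its end windows had 0 bp under peaks in both K49A libraries, and 985, 1243, 1164 and 1022 bp in WT 1 to 4.

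Dio3, the deiodinase that inactivates thyroid hormone (chromosome 12, 110279230 to 110281097), had no end peak in K49A and folds of 3.74, 3.17, 2.61 and 2.75 in WT 1 to 4. Its region lay before the gene and ended 109 bp short of the annotated start, where Dio3os and Mir1247 are also annotated. Plagl1, a zinc finger transcription factor (chromosome 10, 13090832 to 13131694), had none in K49A and 3.43, 3.46, 3.16 and 3.10 in WT 1 to 4. Its peaks differed little between WT libraries and covered the annotated start in each. Nap1l5, a retrogene of the nucleosome assembly protein family, had none in K49A and 3.17, 3.63, 3.48 and 3.26 in WT 1 to 4. Rasgrf1, a Ras exchange factor, had none in K49A and 3.09, 2.78, 2.82 and 2.76 in WT 1 to 4. Gab1, a docking protein of growth factor receptors, and Slc38a4, an amino acid transporter, complete the 9 paternally expressed members of this class, with mean WT folds of 2.97 ± 0.155 and 2.64 ± 0.112 (SD, n = 4 each).

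Among maternally expressed genes, Herc3, a ubiquitin ligase (chromosome 6, 58831455 to 58920398), had no end peak in K49A and folds of 3.37, 3.49, 3.76 and 5.21 in WT 1 to 4. WT 4 was the highest, and the others lay close together. Igf2r, the receptor that clears Igf2 from the cell surface (chromosome 17, 12682406 to 12769706), had none in K49A and 3.4, 3.45, 3.89 and 3.69 in WT 1 to 4. Ube3a, the ubiquitin ligase lost in Angelman syndrome in human (chromosome 7, 59228750 to 59310837), had none in K49A and 3.43, 3.62, 3.10 and 3.19 in WT 1 to 4. Ascl2, a transcription factor needed for the placenta, had none in K49A and 3.34, 3.32, 3.03 and 2.62 in WT 1 to 4. Cobl, Phlda2, Nap1l4, Calcr and Copg2 were the other maternally expressed members of the class, with mean WT folds of 2.92 to 3.48. Phlda2 limits placental growth and Calcr is the calcitonin receptor. Of the transcript-dependent genes, Grb10, an adaptor that restrains insulin and growth factor signalling, was called at an end in all 4 WT libraries, with folds of 3.17, 3.18, 3.24 and 3.02.

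**Figure D3:**
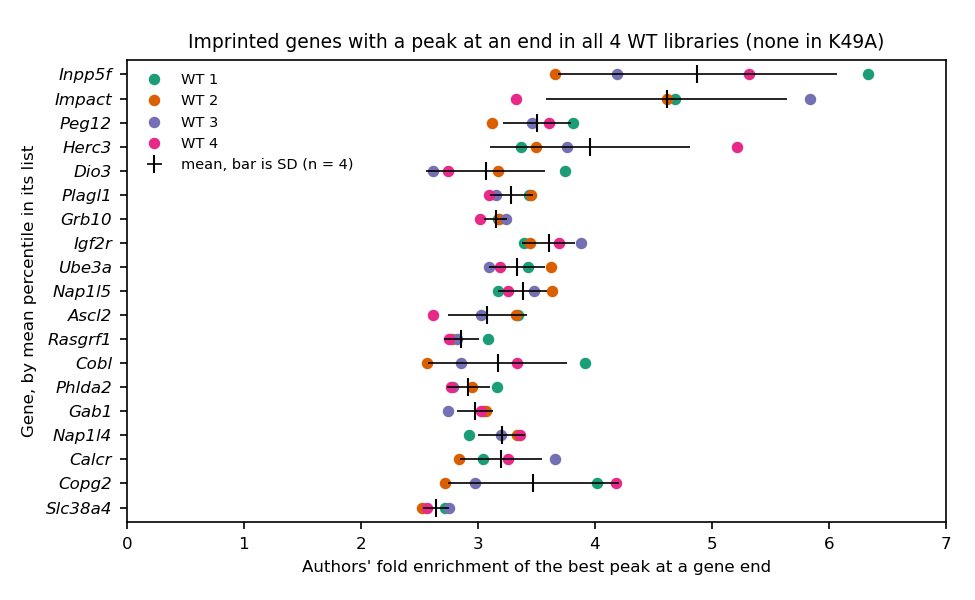
Points give the authors' fold of the best peak at a gene end in each WT library for the 19 imprinted genes called there in all 4, in the order of their mean percentile, with the mean and SD (n = 4). Inpp5f, Impact and Herc3 have the highest means, 4.88, 4.62 and 3.96, and Slc38a4 the lowest, 2.64.

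Paternally and maternally expressed genes overlapped in their shares. At gene ends the share of paternally expressed genes in WT was 48.2 ± 9.45% and that of maternally expressed genes 60.2 ± 6.82% (SD, n = 4 each). Paternally minus maternally expressed, the difference was -18.8, -17.2, 2.60 and -14.6 percentage points in WT 1 to 4, so it was below 0 in 3 libraries and above it in WT 3. In the gene body the shares were 69.6 ± 11.1% and 71.6 ± 15.0% (SD, n = 4 each), with differences of 2.60, -3.90, 2.27 and -8.77 points. The median length was 21310 bp for paternally and 58942 bp for maternally expressed genes. Per 100 kb of gene, paternally expressed genes held 1.11, 1.61, 1.94 and 1.99 peaks in WT 1 to 4, and maternally expressed genes 0.777, 1.09, 1.14 and 1.76. By this measure paternally expressed genes were higher in each WT library, and no test was made of the difference. By the percent of gene length under peaks they were higher in WT 1, 2 and 3. In WT 4 they were lower by that measure, with 0.926% against 0.964%. In K49A neither class had an end peak, and the body peaks, in 0 of 28 paternally and 2 of 22 maternally expressed genes in each library, were too few for a comparison. Neighbouring members share windows, such as Peg3 with Usp29 and Peg10 with Sgce, so the genes of a class are not independent.

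Where the strand was known, the start end of the gene was called more often than the finish end. RefSeq start sites were available for 45 of the 54 members. At the start end of the gene 57.2 ± 7.56% of these 45 had a WT peak (SD, n = 4), and at the finish end 8.89 ± 3.63%, against 39.9 ± 8.61% and 4.0 ± 1.5% of 17447 other genes (SD, n = 4 each). With every annotated start counted in place of the start end, the WT share of imprinted genes was 67.2 ± 9.49% against 43.0 ± 9.05% of other genes (SD, n = 4 each). Genes with more starts have more windows in this count. Per start, in the shorter windows used below for CpG content, imprinted and other genes were close. A peak in all 4 WT libraries was found at 11.9% and 11.2% of starts, and in none at 47.8% and 50.8%. The count per gene took a peak within 1 kb of any start, which could be a different start in each library, as at Igf2. By it, 12 of 23 paternally and 7 of 18 maternally expressed genes had a peak in all 4 WT libraries, against 23.4% of other genes. The mean difference in WT between the classes was 2.42 points, of opposite sign to that at gene ends. Herc3, maternally expressed and called at its start end in all 4 WT libraries, was called in 0 by this count. Its region there lay 1568 bp before its annotated start. Tssc4, also maternally expressed, was called at its start end in 3 WT libraries and in 2 by this count. Annotated starts thus did not always include the outer end of the gene. Other maternally expressed genes were called in more WT libraries by this count than at the start end. Asb4 went from 0 to 3, Osbpl5 from 1 to 3 and Commd1 from 0 to 2. The class difference was not recomputed with the outer ends of Herc3 and Tssc4 added. Zrsr1 and Nnat were called at the finish end alone, in 1 WT library each. Phlda2, a gene of 1601 bp, was the only one of the 45 called at the finish end in all 4 WT libraries, and its start end was called in all 4 as well. Slc22a3, an organic cation transporter of the Igf2r cluster, had a region at its finish (12420239 to 12421705) with folds of 3.62, 3.26 and 2.66 in WT 2, 3 and 4, and none in K49A or WT 1. Plg is also annotated within 1 kb of this region, so it cannot be assigned to Slc22a3 alone.

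Mest, Igf2, Zdbf2, Dlk1 and Gnas, without an end peak in 1 or more WT libraries, each had a peak within 1 kb of an annotated start in all 4. Mest, a hydrolase-like protein of the mesoderm (chromosome 6, 30733506 to 30748466), had none at either gene end. A region from 30737797 to 30738589 covered its internal start, with folds of 2.83, 2.83, 2.89 and 2.38 in WT 1 to 4 and no peak in K49A. Igf2, the fetal growth factor, had regions at internal starts, from 142658964 to 142659791 with 2.89, 2.40 and 2.71 in WT 1, 3 and 4, and from 142660696 to 142661144 with 2.50, 2.42 and 2.38 in WT 2, 3 and 4. Zdbf2, a zinc finger gene, had a region over its internal start with folds of 4.80, 2.51, 2.34 and 4.17 in WT 1 to 4, and a further region (63309226 to 63309747) in its body with 6.29 and 5.39 in WT 1 and WT 4 only. In Gnas, which encodes the stimulatory G protein subunit, the region called in all 4 WT libraries lay over an internal start, with folds of 3.24, 2.56, 2.83 and 2.41. Dlk1, a Notch-like ligand, had 2.73, 2.60, 2.92 and 2.35 at its start in WT 1 to 4. None of these regions was called in K49A.

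In all, 28 different regions at or in imprinted genes were called in all 4 WT libraries, with a median width of 1296 bp. They were 24.3% of the 115 regions at or in imprinted genes, against 14.7% of all 44749 regions. The latter also include regions between genes, and regions at or in other genes were not counted apart. Of the 29 pairs of an imprinted gene and a region called in all 4 WT libraries, 26 were in genes with an annotated start. Of these, 17 covered a start and 20 lay within 1 kb of one. The midpoint lay after the start, in the direction of transcription, in 17 of these 20 and before it in 3, with a median offset of 303.5 bp. This placement was not counted for regions of other genes, so it is not shown to be particular to imprinted genes. More than 1 kb from the annotated starts of the gene they lie in, regions called in all 4 WT libraries lay in Herc3 (58831172 to 58832132, before its start, and 58905906 to 58907159, at Nap1l5), Zim1 (6676912 to 6678540), Snrpn (60243668 to 60245193), Zdbf2 (63247247 to 63248682) and Copg2. In Peg10, a gene derived from a retrotransposon that the placenta needs, such a region lay inside the gene (4753910 to 4755382), with folds of 3.04, 3.31, 3.02 and 2.76 in WT 1 to 4, and at the ends shared with Sgce a peak was called in WT 2 alone.

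**Figure D4:**
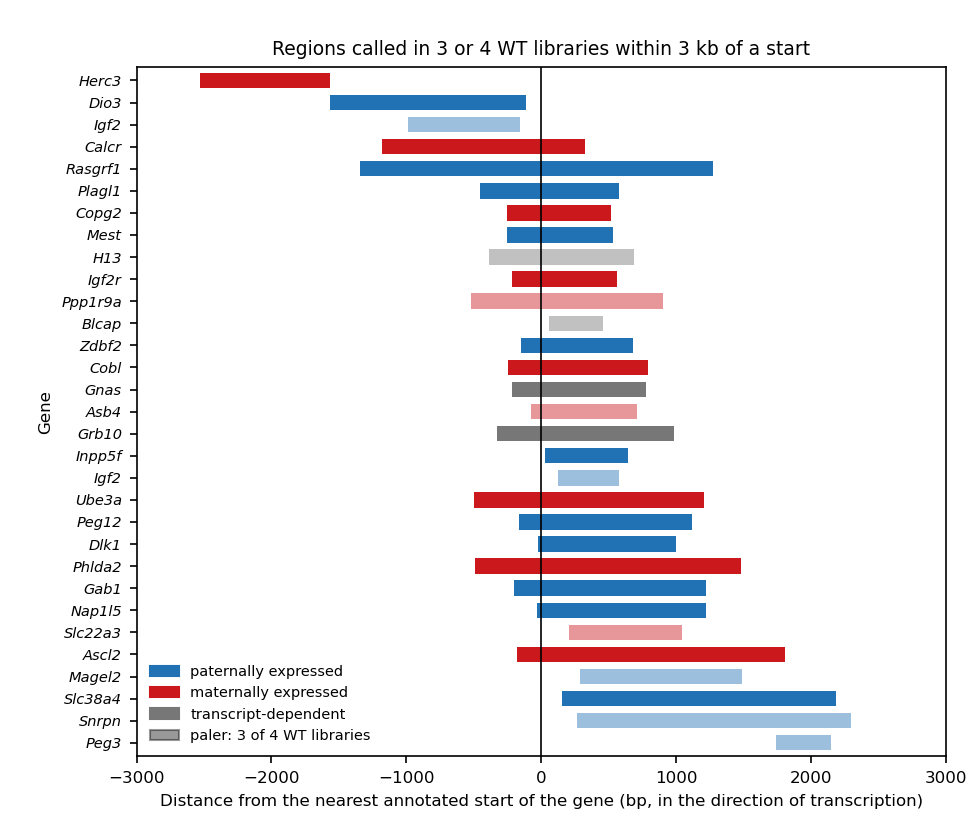
Bars give the extent of merged regions called in 3 (paler) or 4 WT libraries, relative to the nearest annotated start of the gene, in bp along the direction of transcription, coloured by the parental copy expressed. Most bars cover the start at 0 and reach further into the gene than before it, and those of Herc3, Dio3 and 1 of the Igf2 regions lie before it.

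Genes at oocyte-methylated control regions differed among themselves. The 13 members whose own start is known to carry such a region had an end peak in 44.2 ± 13.1% of cases in WT, against 59.1 ± 9.21% of the other 41 members (SD, n = 4 each), with differences of -18.0, -14.8, 5.44 and -32.3 points in WT 1 to 4. The difference in the mean was smaller than its spread between libraries (-14.9 ± 15.5 points, SD, n = 4). Of the 13, Plagl1, Slc38a4, Impact and Nap1l5 were called in all 4 WT libraries, 7 in 1 library, and Mest and Snrpn in 0, and none in K49A. The 7 were Peg3 and Usp29, Mcts2 and Zrsr1 in WT 3, Peg10 and Sgce in WT 2, and Nnat in WT 4. At Snrpn, a splicing protein gene of the Prader-Willi region, a region from 60002899 to 60004935 began 264 bp inside the start shared with Snurf, with folds of 2.88, 3.46 and 2.81 in WT 2, 3 and 4 and none in K49A or WT 1. From general knowledge, 6 genes were grouped as having a control region methylated in sperm. The place of Zdbf2 in this group is uncertain and could not be checked in these data. The 6 genes had an end peak in 50.0 ± 13.6% of cases in WT (SD, n = 4). Of them, Dio3 and Rasgrf1 were called in all 4 libraries and Igf2 and Rtl1 in none. Counted at any annotated start, all 5 of them with one (Igf2, Dlk1, Dio3, Rasgrf1 and Zdbf2) had a peak in all 4 WT libraries. By the same count 4 of 10 genes with their own oocyte-methylated region did, and 23.4% of other genes. This count takes any start of a gene. Per start, in the shorter windows used below for CpG content, 1 of 9 and 1 of 16 had a peak in all 4 WT libraries. Such starts were thus few in both groups, and the contrast in peaks of all 4 libraries was not shown per start. Windows with no WT peak numbered 3 of 9 and 10 of 16.

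Several of these genes are nested in a host gene. Nap1l5 lies in Herc3, and its region (58905906 to 58907159) was also called in all 4 WT libraries in the body of Herc3, whose other such region lay at its outer end. The other nested genes were called at an end in 1 WT library each, Mcts2 in H13 with a fold of 2.47 in WT 3, Nnat in Blcap with 2.57 in WT 4, and Zrsr1 in Commd1 with 2.76 in WT 3. H13, a signal peptide peptidase, had an end peak in WT 2, 3 and 4, Blcap in WT 1, 2 and 4, and Commd1, a regulator of copper handling, in no library. None of these 8 genes had a peak at an end or in its body in K49A.

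CpG content followed the presence of a peak in imprinted genes as it did in other genes. In the 300 bases from 250 before to 50 after each annotated start (67 windows in 45 members, 20472 in other genes), 1 of 10 imprinted windows with 0 to 4 CpG had a peak in any WT library, 2 of 14 with 5 to 9, 11 of 20 with 10 to 19, and 21 of 23 with 20 or more. In percent these are 10, 14.3, 55.0 and 91.3, against 5.89, 21.3, 61.0 and 89.0 in other genes. Imprinted windows with a peak in all 4 WT libraries held a median of 27.5 CpG (8 windows), those with a peak in none 7 (32 windows), against 31 and 4 in other genes. In K49A, no imprinted window had a peak. The following windows, from RefSeq for GRCm38.p6, show starts with a peak (Plagl1 at chr10:13090582-13090881 on the + strand, and the internal start of Mest at chr6:30737800-30738099, +), and starts without one in any library (Slc22a18 at chr7:143473539-143473838, +, and Nnat at chr2:157559828-157560127, +) or with one in WT 3 alone (Peg3 at chr7:6730370-6730669, −). They are printed 5′ to 3′ with each CpG in capitals.
Plagl1: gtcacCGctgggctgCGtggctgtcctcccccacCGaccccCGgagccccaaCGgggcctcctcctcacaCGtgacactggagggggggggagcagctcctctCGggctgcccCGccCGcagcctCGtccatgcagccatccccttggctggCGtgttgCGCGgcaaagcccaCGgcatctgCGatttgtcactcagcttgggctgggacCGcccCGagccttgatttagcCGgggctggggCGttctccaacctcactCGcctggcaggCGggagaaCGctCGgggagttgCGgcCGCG
Mest: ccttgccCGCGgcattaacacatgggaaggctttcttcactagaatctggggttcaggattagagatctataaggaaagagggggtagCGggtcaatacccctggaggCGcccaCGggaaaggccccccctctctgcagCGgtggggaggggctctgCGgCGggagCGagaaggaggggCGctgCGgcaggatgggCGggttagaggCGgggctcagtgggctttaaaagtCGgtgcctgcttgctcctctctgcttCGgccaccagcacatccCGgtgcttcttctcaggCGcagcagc
Slc22a18: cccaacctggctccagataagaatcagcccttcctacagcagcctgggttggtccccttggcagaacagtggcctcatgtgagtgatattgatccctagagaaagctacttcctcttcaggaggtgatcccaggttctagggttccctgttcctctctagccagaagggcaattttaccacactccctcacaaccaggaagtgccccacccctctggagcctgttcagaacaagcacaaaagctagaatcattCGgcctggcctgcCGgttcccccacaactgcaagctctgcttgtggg
Nnat: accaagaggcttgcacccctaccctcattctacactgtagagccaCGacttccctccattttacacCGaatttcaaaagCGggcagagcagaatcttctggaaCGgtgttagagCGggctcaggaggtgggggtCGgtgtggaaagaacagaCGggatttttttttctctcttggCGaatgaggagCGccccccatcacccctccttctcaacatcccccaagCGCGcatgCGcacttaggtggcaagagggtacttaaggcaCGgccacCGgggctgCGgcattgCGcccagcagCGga
Peg3: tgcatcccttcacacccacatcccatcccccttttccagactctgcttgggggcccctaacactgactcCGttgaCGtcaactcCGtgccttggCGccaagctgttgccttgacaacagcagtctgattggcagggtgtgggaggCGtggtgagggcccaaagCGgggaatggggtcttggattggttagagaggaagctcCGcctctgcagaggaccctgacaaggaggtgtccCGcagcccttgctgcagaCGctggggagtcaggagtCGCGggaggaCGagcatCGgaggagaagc
The Plagl1 window held 26 CpG and had a peak in 4 WT libraries, and that of Slc22a18, an organic cation transporter-like gene, held 2 and had none. Mest and Nnat held 17 CpG each and were covered in 3 and 0 WT libraries, so the count of CpG alone did not separate these starts. Peg3, a zinc finger gene of maternal behaviour and growth, held 13. Nnat and Peg3 were added after their values were seen. Zim1 (20 CpG) and Cd81 (23) were the imprinted windows in the richest class with no WT peak.

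**Figure D5:**
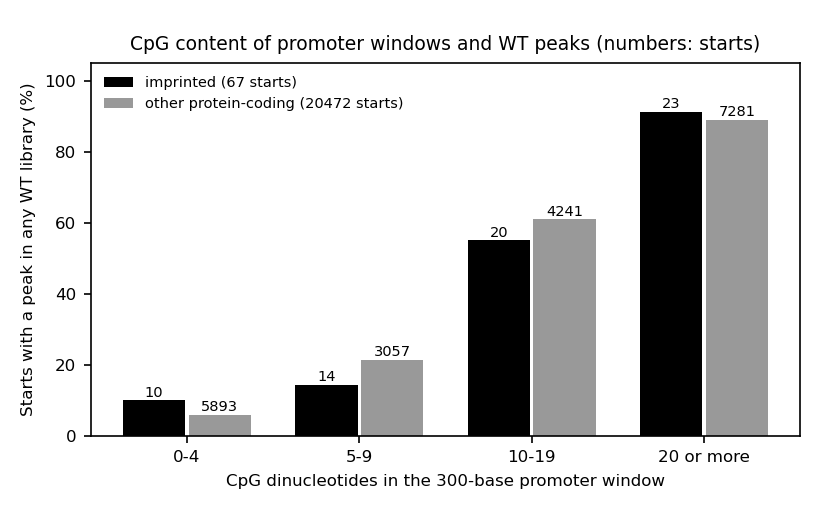
Bars give the percent of annotated starts whose 300-base window had a peak in any WT library, by the number of CpG dinucleotides in the window, for imprinted genes (black) and other genes (grey), with the number of starts above each bar. Both rise with CpG content, to 91.3% and 89.0% at 20 or more.

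Motifs were searched as plain letters on both strands of these windows. TGCCGC, the core that Zfp57 binds when methylated, was found in 15 of 67 imprinted windows (22.4%) and in 14.0% of windows of other genes. It was found in 2 of the 8 imprinted windows with a peak in all 4 WT libraries and in 6 of the 32 with none. TGCCGC itself holds a CpG. GCCATNTT, the core of Yy1 sites, was found in 4 imprinted windows (5.97%, against 6.40%). TATAAA, the TATA box, was found in 11 (16.4%, against 12.7%). Of the 5 motifs searched, the other two were sites of Nrf1, found in 2 imprinted windows, those of Nnat and Commd1 (2.99%, against 1.27%), and of Ctcf, found in 0 (against 0.0440%).

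The imprinted genes with peaks in K49A were Copg2 and Ppp1r9a, both maternally expressed, on chromosome 6 and called in the gene body in both K49A libraries. A body peak in both K49A libraries was found in 0.452% of all genes and one in at least 1 in 2.07%, and 2 of 54 is too small a count to set apart from these. Copg2 (chromosome 6, 30747554 to 30896815) encodes a coatomer subunit. Its region from 30804208 to 30805757 had folds of 4.03 and 3.99 in K49A 1 and 2, and of 3.47, 5.06, 4.54 and 3.99 in WT 1 to 4. It was called in all 6 libraries, and lay 91037 bp from the annotated start. The peak was 878 and 342 bp wide in K49A 1 and 2, and 582, 963, 854 and 1003 bp wide in WT 1 to 4. A neighbouring region (30803065 to 30804103) was called in K49A 2 with 3.27 and in WT 3 and WT 4 with 2.75 and 3.02. At the start of Copg2, where Tsga13 is also annotated within 1 kb, no peak was called in K49A, against folds of 4.02, 2.72, 2.98 and 4.18 in WT 1 to 4.

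Ppp1r9a (chromosome 6, 4902872 to 5165661) encodes neurabin, an actin-binding partner of protein phosphatase 1. Its region from 4923837 to 4924176 had folds of 4.37 and 3.33 in K49A 1 and 2, and of 3.53 and 3.26 in WT 1 and WT 4, and was not called in WT 2 or WT 3. At its start no peak was called in K49A, against folds of 3.98, 2.90 and 3.32 in WT 1, 2 and 4. Outside the counted windows, K49A 2 had a peak 1812 bp from an end of Peg10, and the nearest peak of K49A 1 was 163332 bp away. Folds are relative to each library's own background and were not compared between genotypes. WT 3 had no peak at an end or in the body of Ppp1r9a.

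The imprinted genes without peaks were few. Ins2, an insulin gene (chromosome 7, 142678656 to 142679726), and Slc22a18 (chromosome 7, 143473726 to 143499334) had no peak at an end or in the body in any of the 6 libraries. They are 3.70% of the members, against 29.8% of all genes. These shares were not adjusted for gene length, and the members are longer, with a median of 39383 bp against 17144 bp for other genes. The nearest WT peak to an end of Ins2 was 14142 to 19092 bp away, and to an end of Slc22a18 1711 to 3120 bp. Dcn, Rtl1, Ddc, Sfmbt2, Asb4, Commd1, Zim1, Igf2, Mest and Snrpn had body peaks in WT but no end peak in any library. In Ddc, an enzyme of dopamine synthesis, the body region called in 3 WT libraries (11867461 to 11868699) had folds of 3.14, 3.4 and 2.55 in WT 2, 3 and 4. Sfmbt2, a Polycomb-related gene, had a body peak in each WT library, and none of its regions was called in more than 1.

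Within clusters the genes differed. Of the 6 genes of the Snrpn to Ube3a cluster, 0 had an end peak in either K49A library and 3, 3, 4 and 5 in WT 1 to 4. Peg12 and Ube3a were called in all 4 WT libraries, Magel2 in WT 2, 3 and 4, Mkrn3 in WT 1 and 4 and Ndn, a growth suppressor of neurons, in WT 3 and 4. Of the 10 genes of the Igf2 to Cdkn1c cluster, 0 had an end peak in either K49A library and 5, 6, 5 and 5 in WT 1 to 4, with Ascl2, Phlda2 and Nap1l4 called in all 4 and Cdkn1c, a cell cycle inhibitor, in WT 3 and 4. In the Peg3 cluster an end peak was called in WT 3 alone. Among 20 genes that set or keep imprints, 0 had an end peak in K49A, and Trim28, Ctcf, Tet3, Yy1, Smchd1 and Arid4b had one in all 4 WT libraries, against 22.2% of all genes. Dnmt1, Dnmt3a, Dnmt3l, Uhrf1, Zfp57, Nlrp2 and Nlrp5, 7 of the 20, had no end peak in any library, and 40.2% of other genes had none in WT. These counts are near those over all genes.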

How the data were processed

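The deposited files were 1 list of broad peaks per library, for which the submitters' processing notes name mm10, FastQC, BWA, Picard, SAMtools and MACS2. Per the labels' protocols the adaptors held molecular identifiers; no label says whether these were used. Versions, settings and any control are not stated there. For each peak the authors deposited a fold enrichment over background (a ratio), a −log10 p-value, a −log10 q-value and a whole-number score. Positions are given 1-based. Gene spans came from RefSeq for GRCm38.p6, which gives no exons, and strands and starts from its promoter table (45 of 54 members). A peak was at a gene end if it overlapped by at least 1 bp the window 1 kb either side, and in the body if its midpoint was inside. Titles gave each library its genotype and number. Shares over the members carry no p-value. The exact permutation test (two-sided, 15 splits) was run per gene over all genes. Limits for a count of 0 use 3 counts and cover counting error only. Members, lists and classes of parental expression and methylation were chosen with earlier results of these data known, the classes from general knowledge. Members were named where they had an end peak in all 4 WT libraries, any K49A peak, no peak, or a nested partner, and values per library were given for the 12 highest by percentile. Members outside this rule, such as Mest, Igf2, Zdbf2, Dlk1, Gnas, Peg10, Snrpn, Slc22a3 and Ddc, were chosen after their values were seen, as were the windows at internal starts. Software was Python 3.11.15 with numpy 2.4.6, pandas 2.3.3 and scipy 1.17.1.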

Additional observations from a re-analysis of the deposited data

Results flagged for a closer look

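In Gab1, 1 WT library lay apart from the others in the fold of the best end peak. The folds were 3.05, 3.07, 2.74 and 3.03 in WT 1 to 4, and the gap between WT 3 and the next value was 0.862 of the range of the 4 libraries, above Dixon's critical value for 4 values. Such a gap was looked for in 30 groups of 4 values, and chance gives about 1 in 20. The difference is small, 2.74 against at least 3.03; Gab1 had no end peak in K49A and one in each WT library.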

How the results depend on the processing

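The K49A minus WT difference in end share, -55.6 points, kept its sign in all settings and was -47.2 with windows of 500 bp, -38.4 with peaks kept from a −log10 q of 2, -34.3 with those from a −log10 p of 5, -4.17 with 700 peaks per list and -67.2 at annotated starts. In the body, -68.1 points, it was -44.9, -39.8 and -1.85 at these q, p and list-length settings. Leaving out each library gave -59.3 to -53.1 and -72.8 to -63.0 points. The count of 19 members was 11, 9 and 0 at these settings, and 19 to 24 without each library, with no share over all genes counted there. The excess of imprinted over other genes in WT, 13.6 points at ends and 27.6 in the body, stayed positive, at 10.8, 9.90 and 2.38, and at 19.1, 17.5 and 3.46, at the same q, p and list-length settings. At ends it was 9.25 with 500 bp windows, 11.3 with at least 0.5 of the peak in the window and 24.3 at annotated starts, and without each WT library 12.9 to 14.4 and 25.7 to 28.8. The value at annotated starts takes any start of a gene. Per start, in the shorter windows, a peak in all 4 WT libraries was found at 11.9% of imprinted and 11.2% of other starts. Paternally minus maternally expressed changed sign, from -12.0 points at ends to 1.95 with 700 peaks and 2.42 at annotated starts, and from -1.95 in the body to 0.731 with any overlap, 0.568 with 700 peaks and 0.325 without WT 4; leaving out each WT library gave -16.9 to -9.74 and -3.46 to 0.325. The cause was not tested, and the count at annotated starts leaves out the outer ends of Herc3 and Tssc4, both maternally expressed. For genes with their own oocyte-methylated region, leaving out each WT library gave -21.7 to -9.13 points around -14.9. Titles give K49A and WT libraries the same numbers, but nothing shows that these pair them; as a replicate block, the mean difference was -50.9 points at ends and -59.3 in the body, and for libraries alike in file name, chosen after seeing the data, -53.7 and -68.5. The depth of the libraries is unknown, and a gene without a peak in K49A was not called at this threshold, which does not show that nucleosomes are absent there.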

Other observations

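Regions at or in imprinted genes that were called in exactly 2 WT libraries and in no K49A library numbered 13. Of these, 5 were shared by WT 2 and WT 3, 5 by WT 3 and WT 4, 2 by WT 1 and WT 4 and 1 by WT 1 and WT 3. In percent, the pair of WT 2 and WT 3 held 38.5 of these regions, against 42.4 of the 6113 such regions in the whole genome, and WT 1 and WT 4 held 15.4, against 7.51. The 2 regions of WT 1 and WT 4 were at Mkrn3 (folds of 4.20 and 3.11) and in Zdbf2 (6.29 and 5.39), and of the best end peaks of imprinted genes only that of Inpp5f in WT 1 (6.33) had a higher fold than 6.29.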
